A study of Mus musculus with 2 samples.

Results

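The 10 genes described here, of 32285 in the deposited count tables, encode transcription factors that T cells switch on early after their antigen receptor is engaged. They are the AP-1 subunit genes Fos, Fosb, Jun, Junb and Jund, the orphan nuclear receptor genes Nr4a1, Nr4a2 and Nr4a3, and the zinc-finger factor genes Egr1 and Egr2. They were chosen by name as a family, and all 10 symbols were found in both tables. Their values were read in CD8 T cells, taken as barcodes with at least 500 detected genes, a mitochondrial share of UMIs under 10%, at least 1 UMI of Cd3d, Cd3e or Cd3g, and at least 1 UMI of Cd8a or Cd8b1.

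The study asked how natural killer (NK) cells bear on CD8 T cells in tumours. It made 1 single-cell RNA library per group from MC38 tumours, a colon carcinoma line grown in mice, on day 9 after implantation. The NK-depleted library came from wild-type tumour-bearing mice given an antibody against NK1.1 (treatment label a-NK1.1 antibody). The control library came from wild-type tumour-bearing mice with the treatment label PBS and the library name CD8Iso; which injection they had is not given beyond these words. Live CD8+ T cells were sorted after mincing and collagenase digestion, and the number of mice and their age are not given in the sources used here. With 1 library per group there was no replicate check. No test was therefore made, and every interval below covers counting error alone.

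AP-1 is a dimer of a Fos and a Jun protein. Fos, Fosb, Jun, Junb and Egr1 are immediate early genes, transcribed within minutes of a stimulus through kinases and factors already present in the cell. T cell receptor signals induce them through the ERK and calcium pathways, but so do growth factors, chemokines and the enzymatic digestion of a tissue, which is known to raise Fos and Jun in many cell types. The Nr4a genes respond to receptor signals largely through calcium and NFAT. In mouse T cells Nr4a1 is widely used as a reporter of antigen receptor signal strength, and the Nr4a family is known for its part in T cell exhaustion in tumours. Egr2 and its relative Egr3 act downstream of the receptor in T cell activation and tolerance. Fos and Jun seen with or without Nr4a are therefore often set side by side, to compare signs of antigen signal with signs of handling.

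The stretches before the start sites of 4 of the genes are shown because the core of the CRE, a motif for factors of the CREB and ATF families that couple calcium and kinase signals to early genes, recurred in them. The sequences are the 250 bases upstream of each RefSeq start in build GRCm38.p6, read in the direction of the gene. Capitals mark the CRE core (TGACG, or CGTCA on the other strand) and the EGR site (GCGNGGGCG, or CGCCCNCGC on the other strand). Fos is at chr12:85473640-85473889 on the plus strand, Nr4a1 at chr15:101266596-101266845 on the plus strand, Nr4a2 at chr2:57124004-57124253 on the minus strand and Nr4a3 at chr4:48045055-48045304 on the plus strand.
Fos: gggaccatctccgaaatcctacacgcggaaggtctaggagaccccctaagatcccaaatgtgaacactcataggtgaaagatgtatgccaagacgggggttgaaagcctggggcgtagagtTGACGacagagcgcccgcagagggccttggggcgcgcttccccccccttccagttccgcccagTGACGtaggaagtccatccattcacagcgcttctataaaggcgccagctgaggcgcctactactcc
Nr4a1: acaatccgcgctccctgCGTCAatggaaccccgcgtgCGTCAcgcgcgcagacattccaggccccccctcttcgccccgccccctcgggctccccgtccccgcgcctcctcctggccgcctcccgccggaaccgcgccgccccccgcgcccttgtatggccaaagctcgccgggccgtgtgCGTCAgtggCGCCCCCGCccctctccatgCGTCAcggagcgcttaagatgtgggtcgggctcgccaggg
Nr4a2: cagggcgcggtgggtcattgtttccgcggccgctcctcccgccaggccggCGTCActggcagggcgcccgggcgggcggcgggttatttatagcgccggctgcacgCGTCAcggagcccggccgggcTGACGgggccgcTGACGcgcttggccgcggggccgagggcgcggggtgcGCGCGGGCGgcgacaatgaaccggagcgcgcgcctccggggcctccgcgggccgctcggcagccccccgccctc
Nr4a3: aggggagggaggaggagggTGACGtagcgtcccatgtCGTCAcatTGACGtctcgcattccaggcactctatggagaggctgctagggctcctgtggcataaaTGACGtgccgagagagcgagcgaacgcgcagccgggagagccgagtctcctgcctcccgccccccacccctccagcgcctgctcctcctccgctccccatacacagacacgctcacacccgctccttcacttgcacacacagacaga

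The CRE core was in the window of 7 of the 9 members with a RefSeq promoter entry (Fos, Fosb, Junb, Nr4a1, Nr4a2, Nr4a3 and Egr2) and in 17.8% of all 32851 promoter windows of the same length. Counted by window, 9 of 13 held it, Egr2 having several overlapping windows. Nr4a1, Nr4a2 and Nr4a3 held 4 copies each and Fos 2. The EGR site was in the windows of Fosb, Nr4a1 and Nr4a2 and in 4.70% of all promoters. The CArG box, which serum response factor binds, was in the Egr2 windows alone among the members and in 1.47% of all promoters. The full CRE (TGACGTCA), the AP-1 site (TGANTCA) and the NBRE of the Nr4a receptors (AAAGGTCA) were in none of the member windows, and in 1.55%, 6.75% and 1.34% of all promoters. Both strands were searched, and the CRE core overlaps the full CRE by construction. These are letter matches in a short window, and a motif outside it was not looked for. The Jund window (chr8:70697489-70697738) ends well before the GENCODE start of the gene (70698949), so the stretch next to that start was not searched.

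The NK-depleted library held 8164 CD8 T cells by the rule above (97.7% of the cells that passed the first 2 filters) and 125332343 UMIs. The control library held 6901 cells (96.3%) and 106462391 UMIs. The median cell had 12289.5 UMIs and a mitochondrial share of 2.80% in the NK-depleted library, against 11444 UMIs and 2.27% in the control library. The rule itself fixed the presence of Cd3 and Cd8 UMIs. Of markers it did not use, Cd4 was at 0.207 CPM (counts per 1000000 summed UMIs) in NK-depleted cells and 0.432 CPM in control cells, and Ncr1, an NK cell receptor gene, at 0.0239 and 0.169 CPM. Whole marker lists summed to more. In the same order, NK cell markers stood at 207 and 190 CPM and CD4 T cell markers at 181 and 242 CPM. Macrophage markers stood at 24.8 and 33.5 CPM and gamma delta T cell markers at 32.9 and 18.9 CPM. The CD4 list shares Ctla4 with the exhaustion markers, so neither single genes nor sums measure purity here. Both libraries shared 391 barcodes, of which 26 were CD8 T cells in both. Leaving these out is among the alternatives of the closing section. Doublets must be taken as largely unremoved, since the caller named 0 in the NK-depleted library and 1 in the control library.

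Most of the family had lower levels after NK depletion. Of the 9 members that reached 10 CPM in at least 1 library, 6 were at least 20% lower (Fosb, Junb, Jund, Nr4a1, Nr4a2 and Nr4a3) and 0 were at least 25% higher; among all 7624 genes at that level, 11.9% were that much lower and 6.27% that much higher. These limits hold wherever genes are counted as lower or higher below. Egr2 was under that minimum. The median log2 ratio of the 9 members was -0.35, against -0.06 over all genes. Other scaling moves this boundary: with TMM or median-of-ratios factors 3 members were counted as lower, and of all genes past either limit 60.4% and 63.5% were higher, against 34.5% without such factors. The median of all genes moved up by 0.10 on the log2 scale with median-of-ratios factors, and the members' median lay 0.29 below it both with and without them (members minus all genes, -0.29 in each case). That gap was smaller by other choices, at -0.18 with cells averaged, -0.18 with counts thinned, -0.17 without cycling clusters and -0.16 with equal cluster weights.

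**Figure D1:**
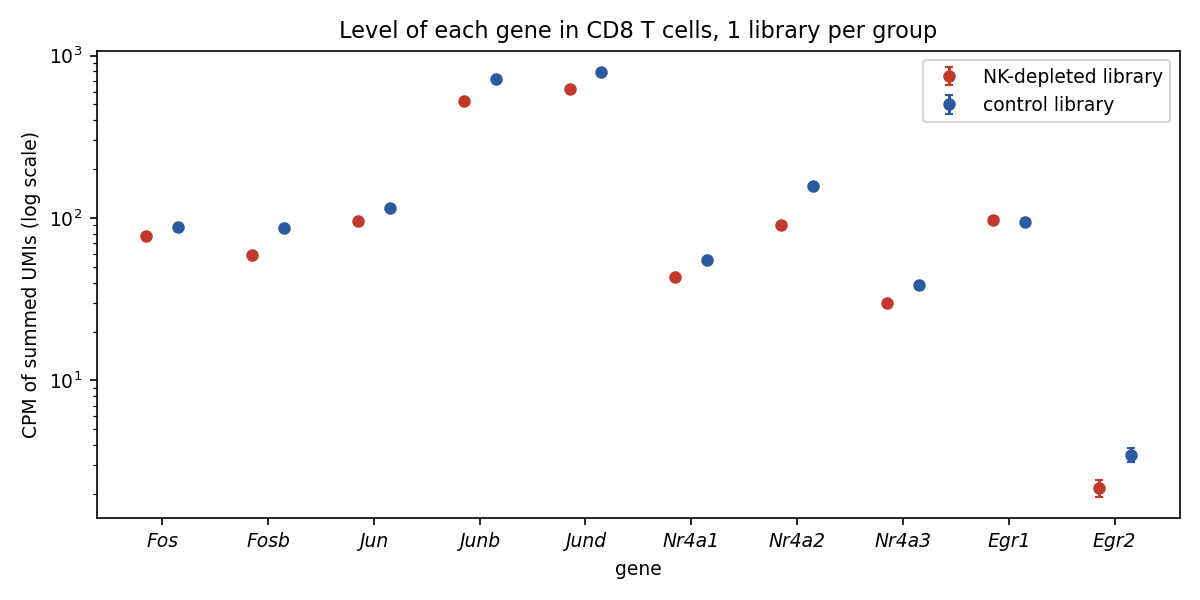
Level of each gene in the CD8 T cells of the NK-depleted (red) and control (blue) library, as CPM on a log axis, 1 library per group; bars are exact 95% Poisson intervals, smaller than most points. Only Egr1 is higher in the NK-depleted library (97.4 against 94.0 CPM), and the widest gap among genes of 10 CPM or more is that of Nr4a2 (90.0 against 156 CPM).

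The Nr4a receptors had the largest difference as a family. Their summed level was 163 CPM in the NK-depleted library and 250 CPM in the control library, a ratio of 0.652 (95% counting interval 0.640 to 0.664). Nr4a2 made most of it. It stood at 90.0 CPM in the NK-depleted library (11281 UMIs) and at 156 CPM in the control library (16650 UMIs), a ratio of 0.576 (0.562 to 0.589). Nr4a1 stood at 43.5 CPM in the NK-depleted library and 55.5 CPM in the control library, a ratio of 0.783 (0.755 to 0.813). Nr4a3 stood at 29.8 and 38.5 CPM in the same order, a ratio of 0.773 (0.739 to 0.808). Nr4a2 thus differed more than its relatives, whose intervals do not reach its own.

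Within AP-1, the partners of one family did not move by the same amount. Fosb was at 58.8 CPM in the NK-depleted library and 87.3 CPM in the control library (ratio 0.673, 0.653 to 0.694). Fos, its closest relative, was at 76.9 CPM in the NK-depleted library and 88.6 CPM in the control library (ratio 0.868, 0.844 to 0.893). Their counting intervals do not overlap, and the gap between them was as wide without the clusters that carry markers of macrophages, dendritic cells or fibroblasts (0.667 for Fosb and 0.863 for Fos). Junb, a Jun protein that also restrains Jun in some settings, was at 522 CPM in the NK-depleted library and 720 CPM in the control library (ratio 0.725, 0.718 to 0.733). Jund, the Jun family member that resting cells keep at a steady level, was at 622 and 787 CPM (ratio 0.791, 0.783 to 0.799). Jun itself was at 95.2 CPM in the NK-depleted library and 115 CPM in the control library, a ratio of 0.829 (0.808 to 0.850) that falls just short of the limit, as Jund lies just past it.

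Egr1 was the exception. It stood at 97.4 CPM in the NK-depleted library and 94.0 CPM in the control library, a ratio of 1.04 (1.01 to 1.06), and the ratio was 0.955, 0.942 and 0.988 in turn when cells were averaged, cycling clusters left out or clusters given equal weight. Egr2 ran the way of the AP-1 and Nr4a genes. It was the rarest member, with 273 UMIs in the NK-depleted library and 370 UMIs in the control library (2.18 and 3.48 CPM; ratio 0.627, 0.534 to 0.735).

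The related genes of the pathway were read from 5 lists. Their counts stand beside 11.9% of all genes lower and 6.27% higher. They were made over all cells without scaling factors and were not repeated within clusters, so the mix of cell states enters them. The T cell receptor and NFAT list also shares Tox, Rgs16 and Tnfrsf9 with the exhaustion markers. Of 29 measured genes of the T cell receptor and NFAT response, 15 were lower in the NK-depleted library and 1 was higher, with a median log2 ratio of -0.33. The largest differences were in Tox, the exhaustion-associated nuclear factor (24.7 CPM in the NK-depleted library, 74.1 CPM in the control library; log2 ratio -1.59), Spry1, a feedback inhibitor of the ERK pathway (5.02 and 10.8 CPM; -1.11), Cd200 (11.3 and 20.1 CPM; -0.83) and Dusp4, an ERK pathway phosphatase (36.6 and 60.9 CPM; -0.74). Of 22 measured genes of a shared immediate early list, which growth factors and stress induce too, 11 were lower and 1 was higher, with a median of -0.30. Cebpb (38.9 and 65.6 CPM; -0.75), Klf4 (7.88 and 12.4 CPM; -0.66) and the phosphatase gene Dusp1 (69.8 and 108 CPM; -0.62) were lower, and the kinase gene Sgk1 was higher (26.6 and 17.5 CPM; 0.61).

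Heat shock genes, which cell handling and protein stress induce, had a median log2 ratio of 0.04. Of 12 measured, 1 was lower and 2 were higher. Hsp90aa1 was at 448 CPM in the NK-depleted library and 344 CPM in the control library (log2 ratio 0.38), Hsp90ab1 at 1785 and 1400.0 CPM (0.35), and Hspd1 at 179 and 152 CPM (0.24), while Dnajb4 was at 14.0 and 18 CPM (-0.36). Hspa1a and Hspa1b, the most stress-inducible of the list, were under 10 CPM in both libraries. Of the 16 measured genes of the kinases and factors that feed AP-1 and Egr promoters, 1 was lower and 0 were higher (median -0.12); Mapk8, which encodes the Jun kinase JNK1, was the one (9.75 and 13.0 CPM; -0.42). Of the 8 measured relatives of the members, 2 were lower and 0 higher (median -0.11): Nab1, a co-repressor of Egr factors (77.1 and 104 CPM; -0.43), and Batf, an AP-1 partner needed in effector T cells (44.7 and 58.5 CPM; -0.39). Mafk (17.1 and 19.8 CPM; -0.21) and Jdp2 (14.9 and 16.1 CPM; -0.11) were within the limits.

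To place the members in T cell states, both libraries were clustered together with the 10 members and all genes of these lists left out of the variable genes. Of the 18 clusters, 12 held at least 100 CD8 T cells in each library and were compared. One was naive or central memory-like (9 of 9 markers; 785 NK-depleted and 472 control cells) and one interferon responsive-like (8 of 8 markers; 192 and 1049 cells). The others are called by leading genes, since no state was named with 5 markers and clear of the next. A further 4 clusters carried markers of macrophages, dendritic cells or fibroblasts, and together with a small cluster of few UMIs and one led by granzymes C to G with 85 control cells they were not compared. Among the 12 compared clusters, 3 lay mostly in 1 library and may be that library rather than a state. The Tnfsf8/Lilrb4a-led cluster held 19.2% of NK-depleted and 2.75% of control CD8 T cells, the Gzmk/Itga4-led cluster 1.69% and 16.4%, and the interferon responsive-like cluster 2.35% and 15.2%.

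Among the 12 compared clusters, to which all ranks by cluster below refer, Fos and Jun on the one hand and the Nr4a genes on the other peaked in different states. This held in both libraries. Fos was highest in the naive-like cluster, at 202 CPM in the NK-depleted library and 237 CPM in the control library, and next in the cluster led by S1pr1, Klf2 and Ccl5 (187 and 188 CPM). Its lowest levels were 33.6 CPM, in the mitotic-led cycling cluster of the NK-depleted library, and 43.3 CPM, in the Havcr2/Csf1-led cluster of the control library. Jun was also highest in the naive-like cluster (219 and 230 CPM) and next in a cluster led by Ly49 receptor genes (154 and 201 CPM). The order at the top did not overlap for Jun, but for Fos in the NK-depleted library the first and second clusters were 202 and 187 CPM and lie close.

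Fosb and Junb were spread over more states. Fosb was highest in the S1pr1/Klf2/Ccl5-led cluster (152 CPM in the NK-depleted library, 149 CPM in the control library) and next in the naive-like cluster (97.5 and 125 CPM). Junb was highest in the S1pr1/Klf2/Ccl5-led cluster of the NK-depleted library (996 CPM) and in the Ly49-led cluster of the control library (1116 CPM), with the naive-like cluster second in both (876 and 1039 CPM). Jund had the narrowest range of the family, its highest cluster standing 1.85-fold over its lowest in the NK-depleted library and 2.06-fold in the control library.

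Among the compared clusters, the Nr4a genes and Egr2 were highest in the cluster led by Il2 and Xcl1, genes of activated T cells. Nr4a1 stood there at 96.2 CPM in the NK-depleted library and 82.9 CPM in the control library, Nr4a2 at 164 and 224 CPM, and Nr4a3 at 83.3 and 78.7 CPM. For Nr4a3 the second cluster was far below, at 38.8 CPM in the NK-depleted library and 42.1 CPM in the control library. For Nr4a1 it was not: in the NK-depleted library the S1pr1/Klf2/Ccl5-led cluster stood at 93.9 CPM. Egr2 reached 9.34 CPM in the Il2/Xcl1-led cluster in the NK-depleted library (62 UMIs) and 6.97 CPM in the control library (85 UMIs), with no other compared cluster above 4.79 CPM. Nr4a2 was second highest in the Havcr2/Csf1-led cluster of the NK-depleted library (120 CPM) and in the Ifi204/Csf1-led cluster of the control library (210 CPM), and it was low in the naive-like cluster (42.5 and 46.5 CPM). Egr1 followed neither pattern. Its lowest compared cluster was the Ly49-led one in the NK-depleted library (52.7 CPM) and the naive-like one in the control library (50.5 CPM), and its highest were the histone-led cycling cluster (121 CPM) and the Gzmk/Itga4-led cluster (123 CPM). The cluster led by granzymes C to G was not compared, having 85 control cells. Egr1 stood in it at 148 CPM in the NK-depleted and 82.9 CPM in the control library. In the same order, Nr4a2 stood there at 136 and 163 CPM and Nr4a3 at 45.7 and 61.1 CPM.

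**Figure D2:**
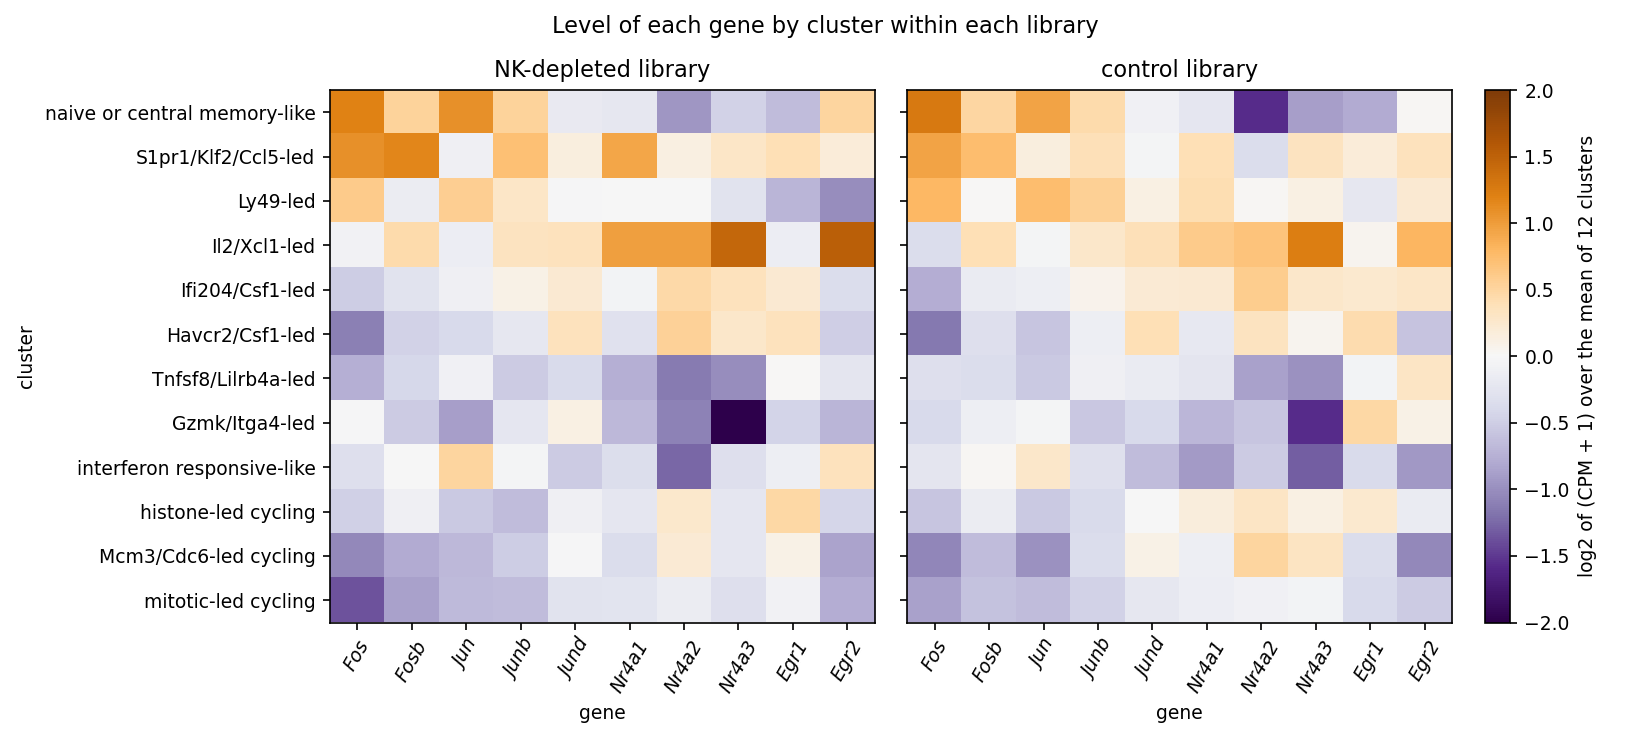
Level of each gene by cluster in the NK-depleted (left) and control (right) library, as log2 of the ratio of CPM + 1 to its mean over the 12 clusters. Colours end at 2 in either direction. Fos and Jun are highest in the naive or central memory-like row and Nr4a3 in the Il2/Xcl1-led row of both panels.

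Over 24 points, the 12 clusters in each of 2 libraries, pairs of members ranged widely in how alike their levels ran. The points share library and depth, so the coefficients are a description. Fosb with Junb (r = 0.83), Nr4a1 with Nr4a3 (0.82), Fos with Junb (0.78), Fos with Fosb (0.77) and Fos with Jun (0.75) were the closest pairs of AP-1 or of Nr4a members. Jund ran with Nr4a2 (0.75) rather than with Fos (0.01). Fos ran with Nr4a1 at 0.35, with Nr4a3 at -0.05 and with Nr4a2 at -0.28, and Jun with Nr4a2 at -0.24. Among genes of at least 20 mean CPM, the closest to Fos were S1pr1 (0.95), the receptor by which T cells leave tissue, Plcxd2 (0.94) and Klf3 (0.94), while for Junb they were Zfp36 (0.96), whose product speeds the decay of cytokine messages, Ppp1r15a (0.94) and Ier2 (0.89). For Jun they were Zbtb20 (0.89), Il6st (0.87) and Setd7 (0.87), for Fosb Ppp1r15a (0.85), Arhgap31 (0.84) and Slamf6 (0.84), and for Jund Traf5 (0.84), Iscu (0.83) and Ctsc (0.79). Nr4a1 was closest to Nfkbia (0.86), the NF-kappa-B inhibitor gene, Tgif1 (0.84) and Gadd45b (0.84). Nr4a3 was closest to Gadd45b (0.87), Il18r1 (0.86) and Rel (0.85), an NF-kappa-B subunit gene. Nr4a2 was closest to Ctsc (0.89), Lrmp (0.89) and Trps1 (0.88), Egr1 to Purb (0.80), Ap1s2 (0.78) and Ehbp1l1 (0.75), and Egr2 to Fosb (0.70), Map3k1 (0.67) and Tob2 (0.67).

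Within clusters, Nr4a2 and Fosb kept the direction seen over all cells. Nr4a2 was lower in the NK-depleted library in 12 of 12 clusters, by 20% or more in 10, with ratios between 0.351 in the interferon responsive-like cluster and 0.914 in the naive-like cluster, whose interval spans 1 (0.773 to 1.08). Fosb was lower in 11 of 12, by 20% or more in each of the 11, with the S1pr1/Klf2/Ccl5-led cluster at 1.02 (0.903 to 1.14). Jund was below 1 in 11 clusters, Junb in 10, Fos, Jun and Nr4a1 in 9 each, and Nr4a3 in 8. Egr1 was below 1 in 5 and above it in 7. Of the 108 pairs of a member and a cluster, 84 (77.8%) had a ratio below 1. The same share over all genes was not counted, but their median log2 ratio was negative in each cluster, between -0.12 and -0.02. The members' median lay above it in the interferon responsive-like cluster (-0.05 against -0.12) and the S1pr1/Klf2/Ccl5-led cluster (-0.01 against -0.04). It lay below that of all genes in the other clusters. With equal weight for each cluster the ratio was 0.590 for Nr4a2 and 0.757 for Fosb, against 0.576 and 0.673 over all cells. By the same weighting Nr4a1 was at 0.893, Nr4a3 at 0.905 and Fos at 0.905, against 0.783, 0.773 and 0.868.

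The clusters differed in how many members were lower. In the Ly49-led cluster, which also held 3 gamma delta T cell markers at 4-fold or more over the other cells, 9 of 9 were lower, where 16.7% of all genes were. As many as 6 of 9 were lower in the Tnfsf8/Lilrb4a-led cluster (15.2% of all genes), the histone-led cycling cluster (10.4%), the Mcm3/Cdc6-led cycling cluster (8.90%) and the mitotic-led cycling cluster (12.3%). The Gzmk/Itga4-led cluster had 5 (25.3%), the Havcr2/Csf1-led cluster 4 (5.69%) and the Ifi204/Csf1-led cluster 3 (10.7%). There were 2 lower members in the naive-like cluster (7.25% of all genes), in the Il2/Xcl1-led cluster (7.01%) and in the interferon responsive-like cluster (28.0%). The S1pr1/Klf2/Ccl5-led cluster had 1 (16.5%), near its background. Higher members were few, with 2 in the interferon responsive-like cluster (10.9% of all genes), where Nr4a1 stood at 38.3 CPM in the NK-depleted library and 28.3 CPM in the control library and Nr4a3 at 23.9 and 12.9 CPM, 1 in the Mcm3/Cdc6-led cluster (6.67%), where Egr1 stood at 93.3 and 68.6 CPM, and 1 in the S1pr1/Klf2/Ccl5-led cluster (9.66%), where Nr4a1 stood at 93.9 and 71.8 CPM.

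**Figure D3:**
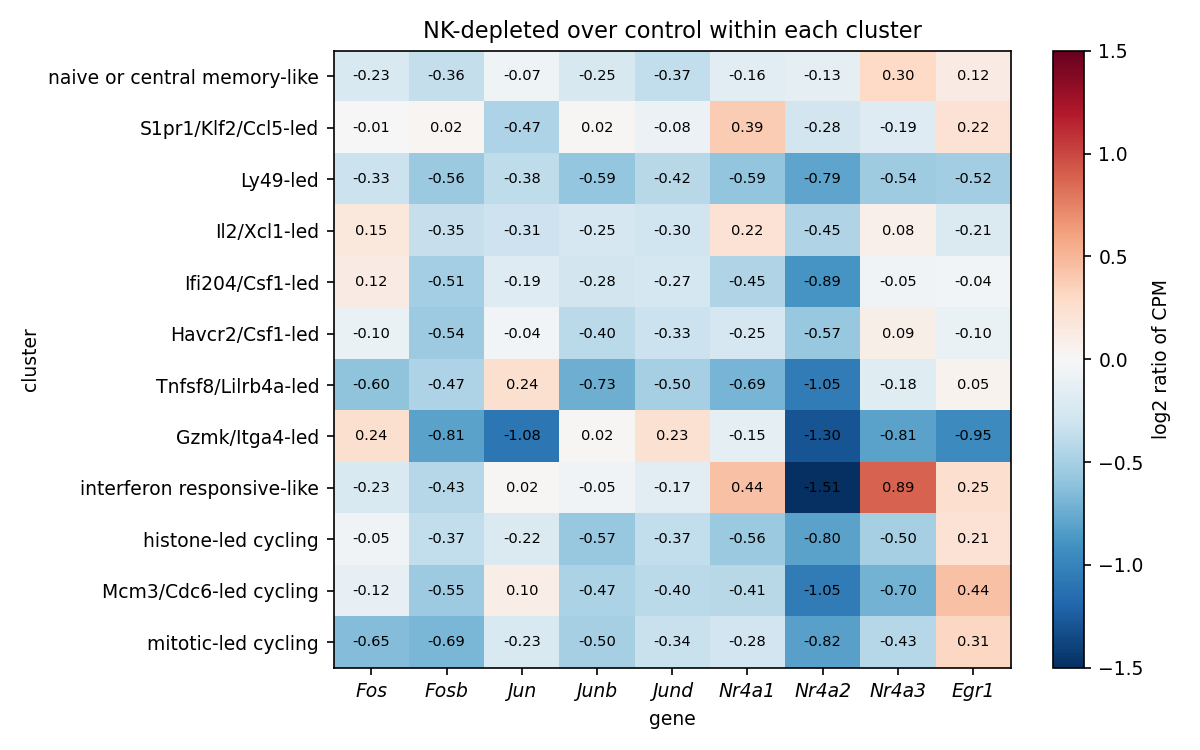
Ratio of CPM, NK-depleted over control, within each of 12 clusters, as log2, with the value written in each cell; blue is lower in the NK-depleted library, and Egr2 is left out as too rare. The Nr4a2 column is negative in all 12 clusters, between -1.51 and -0.13, while the Egr1 column holds both signs.

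To count cells rather than UMIs, each cell was thinned at random to 5500 UMIs, which kept 7384 NK-depleted and 6246 control cells and left out 780 and 655 shallower ones. Nr4a2 was seen in 27.5% of NK-depleted and 39.7% of control cells (43.2% and 55.4% before thinning). In naive-like cells, which were named by markers and not by antigen response, it was seen in 12.8% and 16.7%. Nr4a1 was seen in 16.8% of NK-depleted and 18.6% of control cells (30.7% and 33.9% before thinning), against 17.1% and 14.5% of naive-like cells, so its share in the NK-depleted library was at the naive-like level. Nr4a3 was seen in 11.2% and 12.9% (22.8% and 25.5%), against 8.75% and 7.05% of naive-like cells. Egr2 was seen in 1.03% and 1.62% (2.30% and 3.29%), at or below its naive-like share of 2.36% and 1.98%. The median depth before thinning was 9250 UMIs in naive-like cells of the NK-depleted library and 10317.5 in those of the control library.

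Fos and Jun showed the reverse arrangement. Fos was seen in 23.7% of NK-depleted and 26.3% of control cells (38.5% and 41.3% before thinning), but in 46.7% and 50.2% of naive-like cells. Jun was seen in 31.5% and 34.6% (49.7% and 51.7%), and in 53.3% and 54.4% of naive-like cells. Fosb was seen in 19.9% and 27.9% of cells (33.4% and 42.8%), Egr1 in 28.0% and 27.4% (42.6% and 44.1%), Junb in 82.0% and 88.3% and Jund in 90.7% and 93.5%. Expression was concentrated in few cells for most of them. The 5% of thinned cells with the most UMIs of a gene held 59.8% of the Nr4a3 UMIs in the NK-depleted library and 56.8% in the control library, 50.1% and 47.3% of the Fos UMIs, and 15.7% and 15.5% of the Jund UMIs. Such shares rise as the level of a gene falls. The variance over the mean in thinned cells ordered these genes otherwise. In the same library order, it was 3.23 and 3.48 for Fos, 2.12 and 2.47 for Jund, and 1.88 and 1.98 for Nr4a3.

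Cells were then sorted by whether they held at least 1 UMI of both Fos and Jun and at least 1 UMI of any Nr4a gene. Fos and Jun with Nr4a made 4.50% of NK-depleted cells (95% exact binomial interval 4.03 to 4.99) and 7.24% of control cells (6.61 to 7.91), a difference of -2.74 percentage points. Fos and Jun without Nr4a made 5.21% of NK-depleted cells (4.72 to 5.75) and 4.77% of control cells (4.26 to 5.33), a difference of 0.44 points with a counting interval of -0.30 to 1.17. Nr4a without both Fos and Jun made 37.6% of NK-depleted cells (36.5 to 38.7) and 45.5% of control cells (44.2 to 46.7), a difference of -7.86 points. The cells with neither made 52.7% and 42.5%. Cells with only Fos or only Jun count as neither when they lack Nr4a, and as Nr4a without both Fos and Jun when they hold it. Before thinning the 3 classes were 16.4%, 6.55% and 43.5% of NK-depleted cells and 20.8%, 5.33% and 47.0% of control cells. The differences in the classes that hold Nr4a were larger than counting error. That in Fos and Jun without Nr4a was not detectable at this depth and by this definition. These differences depend on the definition and the depth. With Fos or Jun in place of both, Nr4a without them made 21.9% of NK-depleted and 25.6% of control cells. With Nr4a1 in place of any Nr4a, Nr4a without Fos and Jun differed by -0.97 points, with an interval that spans 0 (-2.19 to 0.23). Thinned to 3000 UMIs, Fos and Jun with Nr4a differed by -0.49 points (-0.96 to -0.03). For Fos and Jun without Nr4a even the direction changed with these choices. It differed by 1.22 points without thinning (0.46 to 1.97) and by 3.57 points with Fos or Jun (2.14 to 4.99). With Nr4a1 alone it differed by -1.43 points (-2.37 to -0.50).

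Among the 12 compared clusters, the naive-like cells had the largest share of Fos and Jun without Nr4a, and their classes were close between the libraries. Fos and Jun with Nr4a made 10.7% of naive-like cells in the NK-depleted library (8.53 to 13.2) and 10.4% in the control library (7.71 to 13.5). Fos and Jun without Nr4a made 16.4% (13.8 to 19.3) and 19.2% (15.6 to 23.1) of them, and Nr4a without Fos and Jun 19.9% (17 to 23) and 20.7% (17.1 to 24.7). Naive-like cells made up 30.6% of all Fos and Jun cells without Nr4a in the NK-depleted library and 29.2% in the control library. Across the 12 clusters, the share with any Nr4a UMI was lower in the NK-depleted library in 11 and higher in 1. The share with Fos and Jun plus Nr4a was lower in 10 and higher in 2, and that with Fos and Jun but no Nr4a lower in 6 and higher in 6. Some of the Fos and Jun directions rest on few cells. The Gzmk/Itga4-led cluster kept 79 NK-depleted cells after thinning, 2 of them with Fos and Jun, and the interferon responsive-like cluster had 8 such cells in that library. In the control library the Tnfsf8/Lilrb4a-led cluster had 13 and the Mcm3/Cdc6-led cluster 11.

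**Figure D4:**
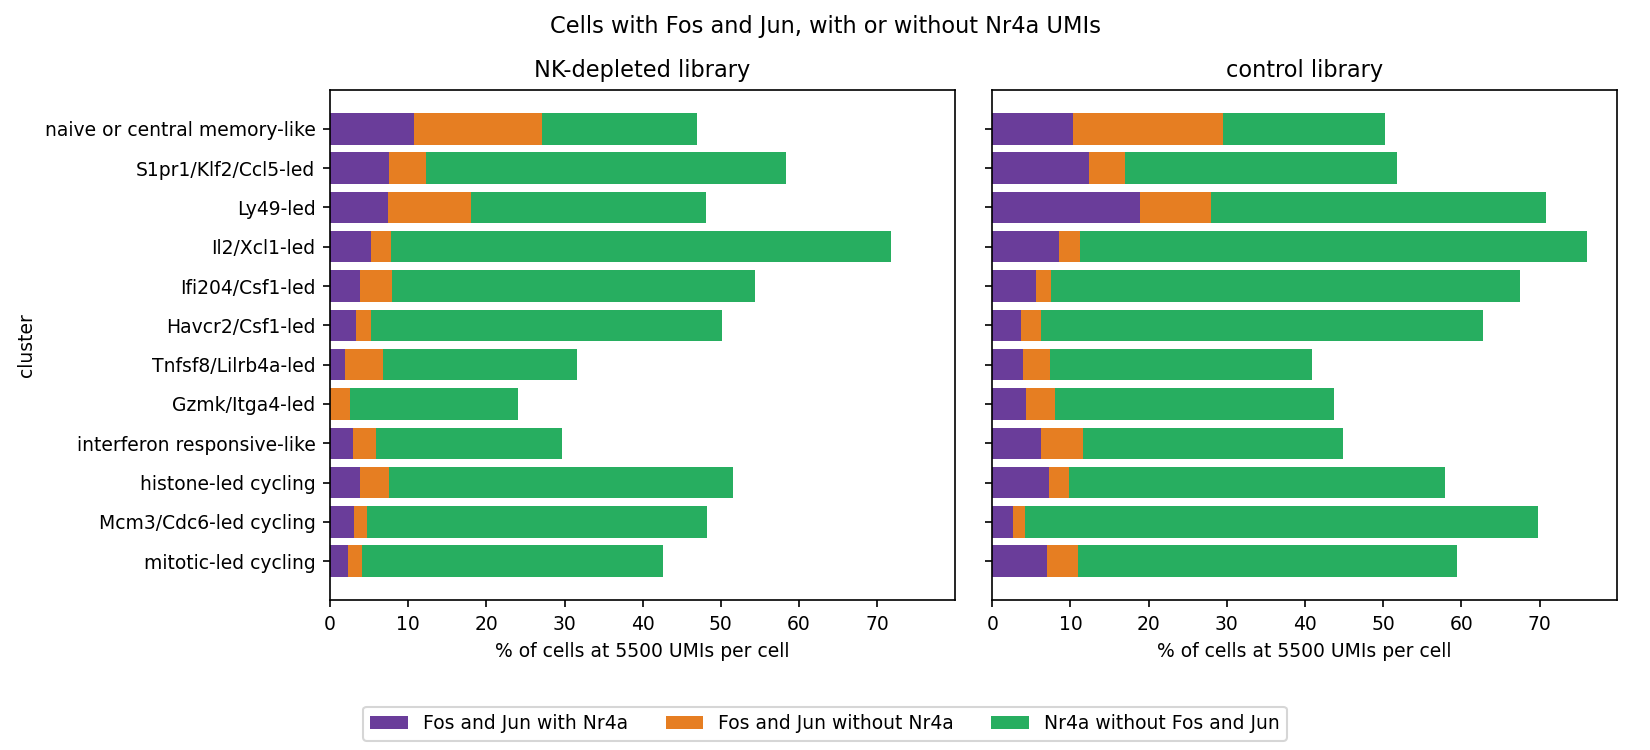
Percent of cells thinned to 5500 UMIs in each class, stacked, for 12 clusters in the NK-depleted (left) and control (right) library. The rest of each bar to 100% has no Nr4a UMI and not both Fos and Jun, though it may hold either. Cells with Fos and Jun but no Nr4a (orange) make 16.4% and 19.2% of naive or central memory-like cells, and the green part (Nr4a without Fos and Jun) is longest in the Il2/Xcl1-led cluster of the NK-depleted library (64.0%) and in the Mcm3/Cdc6-led cycling cluster of the control library (65.6%), where the Il2/Xcl1-led cluster follows (64.9%).

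Within single cells the Fos and Jun signal and the Nr4a signal were only loosely tied. In the NK-depleted library 46.3% of cells with Fos and Jun also held an Nr4a UMI (42.6 to 50.03), against 41.7% of the other cells (40.5 to 42.8). In the control library the shares were 60.3% (56.7 to 63.8) and 51.7% (50.3 to 53.0). Among the 12 compared clusters, the same direction was seen in 7 of the 9 with at least 20 Fos and Jun cells in the NK-depleted library and in 9 of 10 in the control library. As a ratio of the share of cells with both to the product of the single shares, Nr4a3 with Egr2 gave 3.51 in the NK-depleted library and 3.14 in the control library, Nr4a1 with Egr2 2.43 and 2.71, Nr4a1 with Nr4a3 1.96 and 1.77, and Fos with Fosb 1.84 and 1.59. Fos with Jun gave 1.30 and 1.32, and Jun with Nr4a2 0.995 and 1.02, which is the product itself. This ratio can reach higher values for rare genes, and Egr2 was seen in only 1.03% and 1.62% of thinned cells. Correlation of log counts over thinned cells ordered the pairs otherwise. In the same library order, it was 0.34 and 0.32 for Fos with Fosb and 0.24 and 0.21 for Nr4a1 with Nr4a3. Fos with Jun gave 0.17 in both, Nr4a3 with Egr2 0.16 in both, and Nr4a1 with Egr2 0.14 and 0.15.

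Cells with Fos and Jun differed by whether they also held Nr4a. The genes of the T cell receptor and NFAT response were higher in those with Nr4a: 24 of 28 measured genes were higher and 0 lower in the NK-depleted library, where 18% of all genes were higher and 11.9% lower, and 19 of 28 were higher and 1 lower in the control library, where 18% of all genes were higher and 11.8% lower. The summed list stood 1.71-fold higher in the NK-depleted library (1.65 to 1.77) and 1.58-fold in the control library (1.52 to 1.63). Within clusters with at least 20 cells of both classes it differed less, with a median of 1.28 over 4 clusters of the NK-depleted library (1.01 in the Ly49-led cluster to 1.66) and 1.42 over 4 clusters of the control library (1.19 in the naive-like cluster to 1.47). Ccl3, a chemokine gene of activated T cells, stood at 234 CPM with Nr4a and 35.4 CPM without in the NK-depleted library, and at 192 and 43.3 CPM in the control library. Ccl4 stood at 850 and 174 CPM and at 930 and 362 CPM in the same order, Ifng at 291 and 100.1 CPM and at 297 and 123 CPM, and Egr3 at 25.2 and 5.67 CPM and at 22.9 and 2.44 CPM. Of all genes of at least 10 CPM, Cd63, H2-Eb1 and H2-Ab1 were also among the 5 with the largest ratio; H2-Eb1 and H2-Ab1 are dendritic cell markers, and none of these 3 was among the 5 without the clusters of other cell types (Egr3, Ccl3, Serpinb9b, Ccl4 and Nrgn). Without those clusters the list's sum stood 1.76-fold and 1.61-fold higher. The shared immediate early list stood 1.15-fold (1.11 to 1.18) and 1.07-fold (1.04 to 1.10) higher with Nr4a. The heat shock list's sum stood 1.04-fold (1.01 to 1.07) and 1.05-fold (1.02 to 1.08) higher. Of its measured genes 2 of 12 were higher and 1 lower in the NK-depleted library, and 4 of 14 were higher and 0 lower in the control library. Named after their values were seen, Hspa1a stood at 20.5 CPM with Nr4a and 1.83 CPM without in the control library (11.2-fold, 3.63 to 56.1), and Hspa1b at 11.3 and 0 CPM, while both were under 10 CPM in the NK-depleted library.

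Cells with Nr4a but not both Fos and Jun carried the same list. Against cells with neither, 24 of 29 measured genes of the T cell receptor and NFAT response were higher in the NK-depleted library (5.61% of all genes higher, 2.34% lower) and 23 of 30 in the control library (5.29% higher, 4% lower), with summed ratios of 1.76 (1.74 to 1.78) and 1.77 (1.75 to 1.79). The shared immediate early list was also higher, by less: 10 of 22 genes were higher in the NK-depleted library and 5 of 22 in the control library, with summed ratios of 1.13 (1.12 to 1.15) and 1.12 (1.10 to 1.13). The 5 genes with the largest ratio of all were Ccl1, Egr3, Ccl3, Il2 and Ccl4. Il2, the T cell growth factor gene, stood at 16.0 CPM with Nr4a and 2.24 CPM with neither in the NK-depleted library, and at 10.9 and 3.22 CPM in the control library. Egr1, a member outside the class definition, stood at 123 and 73.9 CPM in NK-depleted cells and at 109 and 71.9 CPM in control cells. In every cluster with at least 20 cells of both classes the list's sum was above 1, in 12 of 12 clusters of the NK-depleted library (1.30 to 2.79) and 13 of 13 of the control library (1.15 to 1.95).

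Cells with Fos and Jun but no Nr4a carried more of the shared immediate early list. Against cells with neither, 19 of 23 of its measured genes were higher in the NK-depleted library (12.1% of all genes higher, 17.3% lower) and 16 of 22 in the control library (11.8% higher, 17.4% lower), with summed ratios of 1.38 (1.35 to 1.41) and 1.32 (1.29 to 1.35). Klf2, the factor that maintains S1pr1 in recirculating T cells, stood at 317 CPM in this class and 97.5 CPM in cells with neither in the NK-depleted library, and at 326 and 118 CPM in the control library. Klf4 stood at 28.8 and 5.52 CPM and at 27.5 and 10.8 CPM, and Zfp36 at 115 and 37.0 CPM and at 127 and 53.2 CPM in the same order. Among members, Fosb stood at 148 and 43.4 CPM in NK-depleted cells and at 174 and 64.8 CPM in control cells. Outside the clusters of other cell types, Rflnb, Prss2, Igfbp4, Il6ra and Dapl1 led all genes, of which Igfbp4, Il6ra and Dapl1 are naive or central memory markers here.

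The T cell receptor and NFAT list turned direction with the cell states in this class. Over all cells it stood lower in Fos and Jun cells without Nr4a than in cells with neither, at 0.883 in the NK-depleted library (0.858 to 0.908) and 0.912 in the control library (0.884 to 0.940), with 4 of 27 genes higher and 11 lower, and 6 of 28 higher and 12 lower. Tnfrsf9, an activation receptor gene, stood at 168 CPM in this class and 283 CPM in cells with neither in the NK-depleted library, and at 94.6 and 167 CPM in the control library. Within clusters the same sum was above 1 in 4 of 4 clusters of the NK-depleted library (median 1.12, 1.03 to 1.15) and in 3 of 4 clusters of the control library (median 1.08, 0.996 to 1.21) that held at least 20 cells of both classes. In the naive-like cluster it was 1.15 and 1.21. The shared immediate early list kept its direction within those clusters, with medians of 1.24 in both libraries. The heat shock list was at or below 1 over all cells (0.931 and 0.976) and had medians of 0.960 and 0.961 within clusters.

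**Figure D5:**
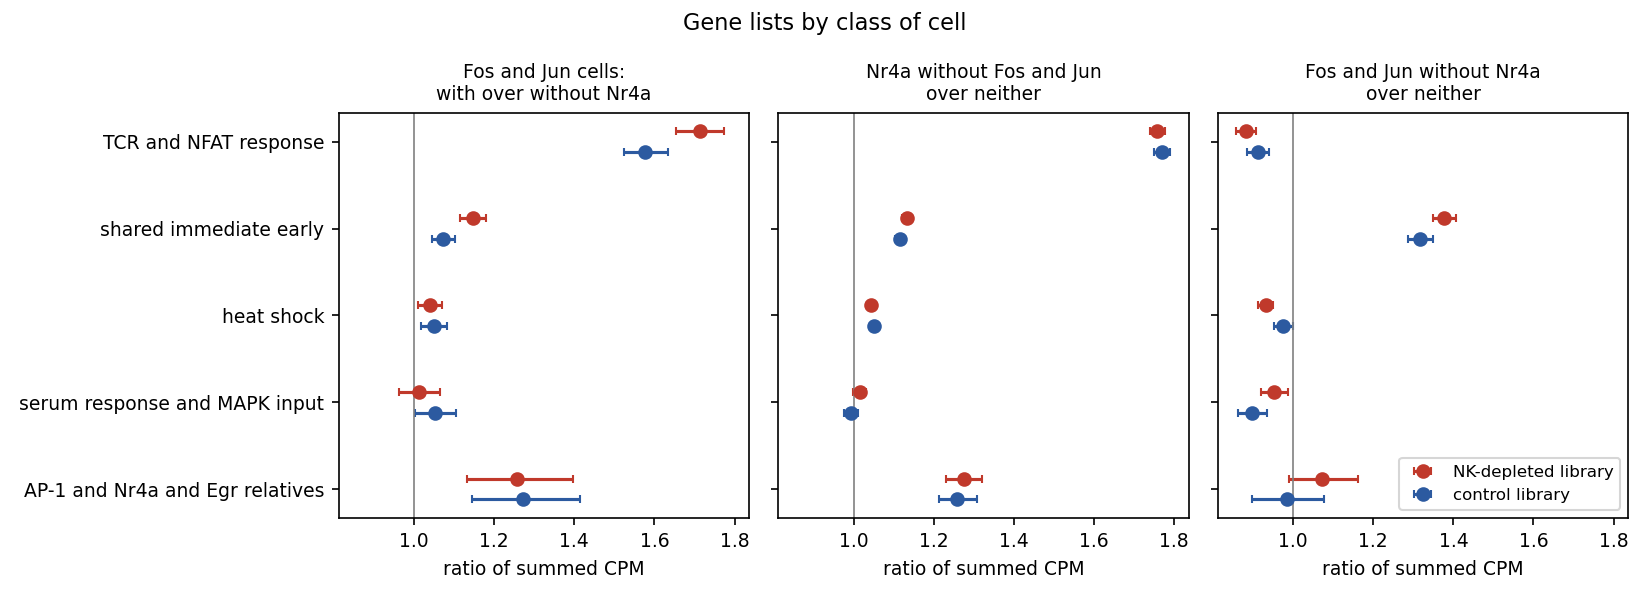
Summed CPM of each gene list in one class of cells over another within each library (NK-depleted red, above; control blue, below), as a ratio; bars are exact 95% counting intervals and the vertical line is a ratio of 1. The T cell receptor and NFAT list stands at 1.58 or above wherever cells with Nr4a are on top, and the shared immediate early list at 1.38 and 1.32 in Fos and Jun cells without Nr4a.

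The mitochondrial share moved with these classes. Its median was 3.36% in NK-depleted and 2.58% in control cells with Fos and Jun and Nr4a. In those with Fos and Jun but no Nr4a it was 3.18% and 2.72%. It was 2.91% and 2.35% with Nr4a but not both Fos and Jun, and 2.60% and 2.09% with neither. Its part in the results was not tested beyond a stricter limit of 5%, under which 6 members were again lower. In the dendritic cluster led by Siglech Fos stood above every compared cluster (666 CPM in the NK-depleted and 440 CPM in the control library), while in the one led by Fscn1 it stood at 111 and 133 CPM; these clusters held 41 and 41 CD8-rule barcodes in the NK-depleted library and 60 and 48 in the control library. All 8 dendritic markers were found, summing to 173 CPM in the NK-depleted and 267 CPM in the control library, and none was at 0 in both. Without the clusters of other cell types Fos stood at a ratio of 0.863 and 6 members were lower (11.9% of all genes). With the Ly49-led cluster also left out, the ratio was 0.844 and 5 members were lower (12.3% of all genes).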

How the data were processed

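Per the labels' protocols, cells were run on the 10x Genomics 5′ platform. The values deposited by the authors are raw UMI counts, whole numbers given for each barcode and gene; the submitters' processing notes name Cell Ranger 6.1.2, Seurat 4.0.6 and the mm10 build. The 10 genes and all lists were chosen with earlier results of these data known. Counts were summed over the CD8 T cells of each library and scaled to CPM. Ratios carry exact conditional binomial 95% intervals, shares exact Clopper-Pearson ones; they cover counting error only, and 1 library per group allows no test. Genes under 10 CPM in both libraries were left out of counts, which took out Egr2.

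Clustering (scanpy 1.11.5, numpy 2.4.6, scipy 1.17.1, leidenalg 0.10.2) used 2000 variable genes, 30 principal components, 15 neighbours and resolution 1, without integration. A state name needed 5 markers at 2-fold over the other cells and a fraction of markers at least 2 times that of the next state; another cell type needed 3 markers at 4-fold, 1 of them among the 10 leading genes. Both rules were set after seeing the data. Shares rest on 1 random draw of 5500 UMIs per cell. Scaling factors came from edgeR 4.0.16 (TMM) and DESeq2 1.42.0 (median of ratios) as alternatives. The ratios, their intervals and the thinning were tested on simulated counts. Named are all members, up to 4 genes per list with the largest difference between libraries, up to 5 per list between classes of cells, the 5 leading genes of each class and the 3 genes most like each member. Gene positions of the members were taken from GENCODE vM21, and promoter sequence from RefSeq (GRCm38.p6), which held 9 of the 10 members.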

Additional observations from a re-analysis of the deposited data

How the results depend on the processing

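Of the 9 measured members, 3 were lower with TMM factors, median-of-ratios factors, cells averaged, cycling clusters left out or counts thinned, and 2 with equal weight for each cluster, against 6 as reported. The shares of all genes lower in those settings, in the same order, were 7.01%, 6.63%, 13.5%, 11.6%, 14.0% and 3.89%, against 11.9%; the other alternatives gave 5 to 7, and none gave a higher member. The median log2 ratio was -0.25 with cells averaged and with counts thinned and -0.21 with equal cluster weights, against -0.35. Over 13 settings the ratio ran from 0.558 to 0.616 for Nr4a2, from 0.647 to 0.757 for Fosb, from 0.712 to 0.804 for Junb and from 0.844 to 0.958 for Fos. The Egr1 ratio turned below 1 in 3 settings: 0.955 with cells averaged, 0.942 without cycling clusters and 0.988 with equal weights.

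The class differences moved with depth and definition. For Fos and Jun with Nr4a (-2.74 points) they were -0.49 at 3000 UMIs, -4.39 without thinning, -0.35 at 2 UMIs per gene, -6.93 with Fos or Jun in place of both and -0.87 with Nr4a1 alone. For Fos and Jun without Nr4a (0.44) the same settings gave -0.50, 1.22, -0.39, 3.57 and -1.43. Counting intervals excluded 0 for the differences of 1.22, 3.57 and -1.43, which differ in direction. For Nr4a without Fos and Jun (-7.86), no thinning gave -3.50, Fos or Jun -3.67, Nr4a1 alone -0.97 (-2.19 to 0.23) and another draw -10.03; the mean over all draws was -9.25. The cause was not tested. Leaving out the clusters of other cell types, the 3 clusters mostly of 1 library, shared barcodes or the cells ranked in the top 8% for doublet score kept each class difference in its direction. These clusters, the barcodes, equal weights, the draws and the results without other cell types alone were chosen after seeing the data. At other clustering settings 76.9% to 84.7% of member and cluster pairs were below 1, and the same share over all genes was not counted. Without other cell types, 17 genes of the receptor and NFAT list, against 18, were higher with Nr4a in both libraries, among Fos and Jun cells. Of all genes, 17.9% were higher in the NK-depleted library and 17.7% in the control library by the same comparison. The share of all genes higher in both was not counted. No paired analysis was possible because each group has 1 library.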
